A study of Mus musculus with 4 samples.

Results

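The miRNAs described here belong to the imprinted Dlk1-Dio3 cluster of mouse chromosome 12. They are the 47 cluster miRNAs of a list of mature names, matched to the miRNA name of each spot on the array, where names carry the mouse prefix mmu (mmu-miR-494), here mostly left out. All 47 were on the array, among 611 mouse miRNAs. The samples were liver RNA of male mice, either wild type (WT) or *Clock* mutant (*Clock*△19, an allele of the circadian activator CLOCK), killed at zeitgeber time 2 (ZT2, 2 h after lights on) or 14 (ZT14, 14 h after lights on). Mice were 6 to 8 weeks old before 2 weeks of individual caging with free food in a 12 h light and 12 h dark cycle. Each of the 4 conditions was 1 Agilent 1-colour array of RNA pooled from 3 mice, so no condition had a replicate and no difference between 2 arrays could be tested. The WT strain and the background of the mutant were not given in the labels.

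The Dlk1-Dio3 domain is imprinted: the protein-coding genes *Dlk1*, *Rtl1* and *Dio3* are transcribed from the paternal chromosome, and long noncoding RNAs and the miRNAs from the maternal one. The miRNAs are cut from long transcripts that run through the domain, and they are best known from embryo, placenta and brain. Deletion of the miR-379 to miR-410 group is known to impair glucose production by the liver of newborn mice. A mature miRNA pairs with target mRNAs mainly through its seed, bases 2 to 8.

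By RefSeq (GRCm38.p6), the 47 members came from 42 hairpins, all on the + strand of chromosome 12. They spanned 164 kb, at chr12:109580233-109743795, and fell into 3 blocks separated by gaps over 10 kb. The first block held 8 hairpins within 15.2 kb, all inside the span of *Rtl1*: miR-493, miR-337-5p, miR-337-3p, miR-665, miR-431, miR-433, miR-127, miR-434-3p, miR-434-5p and miR-136. Several of these are antisense to *Rtl1* and are known to cleave its mRNA. The second block held miR-341 and miR-370, both inside the span of the long noncoding RNA gene *Rian*. The third, 90.7 kb further on, held 32 hairpins within 34.7 kb and 35 members. In order along the chromosome these were miR-379, miR-411, miR-299, miR-380-3p, miR-380-5p, miR-323-3p, miR-758, miR-329, miR-494, miR-679, miR-543, miR-495, miR-667, miR-376c, miR-376b, miR-376a, miR-300, miR-381, miR-487b, miR-539, miR-544, miR-382, miR-134, miR-668, miR-485, miR-154, miR-496, miR-377, miR-541, miR-409-5p, miR-409-3p, miR-412, miR-369-5p, miR-369-3p and miR-410. Of the hairpins of this block, 8 lay inside the span of the long noncoding RNA gene *Mirg* and the other 24, those of miR-494 and miR-487b included, inside no other gene of the annotation used.

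Mature sequences were found for 44 members, and they had 44 distinct seeds, so no 2 of the 44 shared one. The sequences of the member that was bright on every array and of the 5 undetected members with the highest mean spot signal are given 5′ to 3′, with the seed in capitals. The other detected member was miR-487b, from the hairpin at chr12:109727333-109727414.
mmu-miR-494: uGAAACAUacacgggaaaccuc
mmu-miR-668: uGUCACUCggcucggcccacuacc
mmu-miR-136: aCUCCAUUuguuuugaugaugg
mmu-miR-154: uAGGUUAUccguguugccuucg
mmu-miR-341: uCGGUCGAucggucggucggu
mmu-miR-370: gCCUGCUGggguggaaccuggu

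miR-494 is the 3p arm of a hairpin of 85 bases at chr12:109715318-109715402 (+ strand), in the third block. The mature miRNA, in capitals, occupied chr12:109715367-109715388.
Mir494 hairpin: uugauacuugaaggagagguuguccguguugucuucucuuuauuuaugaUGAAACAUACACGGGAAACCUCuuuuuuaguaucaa

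Each miRNA was read by 20 spots, which carried 1 to 4 different probes. Signals are the scanner's processed intensities in linear array units after background subtraction, averaged over spots and probes with outlier spots left out, so a dim miRNA can fall below 0. The number of arrays limits the precision of every value. Negative control spots averaged 5.24 to 9.72 units on the 4 arrays, with an SD of 3.69 to 4.96 over 413 to 423 spots. A miRNA was called detected by the scanner software where at least 1 of its probes had a total signal over 3 times its error. The miRNAs miR-122, miR-192 and miR-194, taken here as hepatocyte markers for the labelled tissue, were detected on all 4 arrays.

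Cluster miRNAs were nearly all without detectable signal in these livers. Of the 47 members, 2 were detected on any array (4.26%), against 195 of 611 mouse miRNAs (31.9%). The WT array at ZT2 detected 2 members, with 31.6% of all mouse miRNAs detected on it. The *Clock* mutant array at ZT2 detected 1 member, against 26.4% of mouse miRNAs. The WT and mutant arrays at ZT14 each detected 1 member, against 22.6% and 23.2%. The member detected on every array was miR-494, and the second, on the WT array at ZT2 alone, was miR-487b. No test was made of these shares, since neighbouring hairpins of 1 cluster are not independent of each other.

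**Figure D1:**
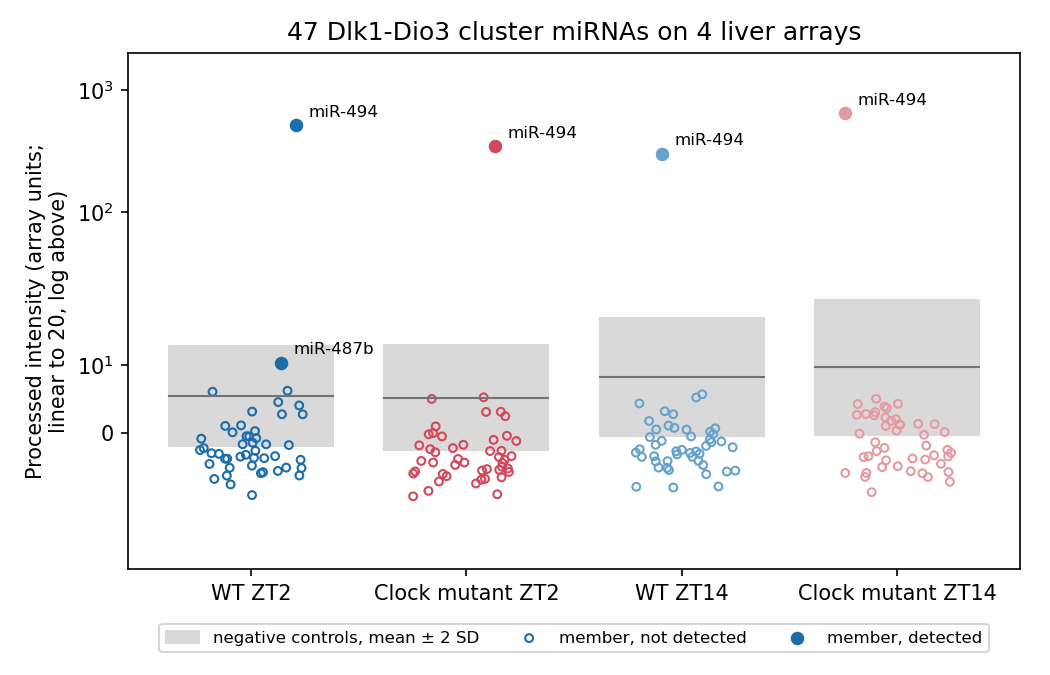
Processed intensity (array units, linear up to 20 and logarithmic above) of the 47 members on each of the 4 arrays; filled points were called detected, open points not, and the grey band is the mean ± 2 SD of the negative control spots with the mean as a line. miR-494 lies between 301 and 642 units, and the other members lie at or below 10.4 units.

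The 45 members detected on no array gave signals between -9.29 and 6.26 units. Their median was -2.94 units at ZT2 and -2.45 at ZT14 in WT, against -4.08 and -2.16 in the mutant. The 371 other mouse miRNAs that were detected on no array had medians of -2.9 and -2.81 units in WT and of -3.99 and -2.17 in the mutant. Both sets were chosen for the lack of a detection call, so the nearness of their medians was largely fixed by that choice. Below the mean of the negative controls were 43 of the 45 on the WT array at ZT2 and all 45 on each of the other arrays. The lowest signal of a detected miRNA, 1.99 to 3.02 units over the arrays, also lay under that mean. A signal under the mean therefore does not by itself set a miRNA apart from detected ones. Below 0 on an array were 60% to 86.7% of the 45, against 67.9% to 81.9% of the other 371. Of the 45, 27 were below 0 on all 4 arrays, and 6 were above 0 on all 4 arrays (miR-668, miR-136, miR-154, miR-341, miR-329 and miR-380-3p).

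Of the 900 spots of these members on an array, 6 and 10 in WT (ZT2, then ZT14) and 5 and 2 in the mutant were marked well above background, or 23 of 3600 in all. No undetected member had more than 2 such spots of its 20 on an array, and 27 had none on any array. These were 0.667% of spots on the WT array and 0.556% on the mutant array at ZT2, against 0.836% and 0.539% for the other undetected miRNAs. At ZT14 they were 1.11% (WT) and 0.222% (mutant), against 0.58% and 0.0674%.

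The first block had no detected member. Its 10 members gave signals from -7.15 to 6.11 units, and 4 of their spots over all arrays were well above background. mmu-miR-127, a miRNA of placenta and embryo that is antisense to *Rtl1*, had 3.19 units at ZT2 and 0.554 at ZT14 in WT, against -0.967 and 2.07 in the mutant. mmu-miR-136, also antisense to *Rtl1*, had 6.11 and 3.16 units at ZT2 and 4.39 and 4.29 at ZT14 (WT, then mutant). miR-127 stayed under the mean of the negative controls on all 4 arrays, and miR-136 passed it on the WT array at ZT2, where that mean was 5.48.

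The second block had no detected member and no spot well above background. mmu-miR-370, which is known to act on hepatic lipid metabolism through *Cpt1a* when supplied to hepatocytes, had 2.80 units at ZT2 and 1.81 at ZT14 in WT, against -0.468 and 2.71 in the mutant. miR-341 had 4.59 and 2.51 units at ZT2 and 0.717 and 3.68 at ZT14 (WT, then mutant). All of these values were below the mean of the negative controls of their array.

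In the third block, 33 of 35 members were undetected, with signals from -9.29 to 6.26 units and 19 spots well above background over the 4 arrays. mmu-miR-668 came nearest to a detection call, with a signal-to-error ratio of 2.48 for its best probe on the WT array at ZT2, where a call needs over 3. Its signals were 6.26 at ZT2 and 5.74 at ZT14 in WT, against 5.05 and 5.07 in the mutant. miR-154 had 4.10 and 3.14 units at ZT2 and 5.27 and 4.34 at ZT14 (WT, then mutant), below the mean of the negative controls throughout. miR-134, known to limit dendritic spine growth in neurons through *Limk1*, gave -8.49 to -5.85 units. The miR-376 members (miR-376a, miR-376b and miR-376c), known for RNA editing of their seeds, gave -5.93 to 1.08 units.

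**Figure D2:**
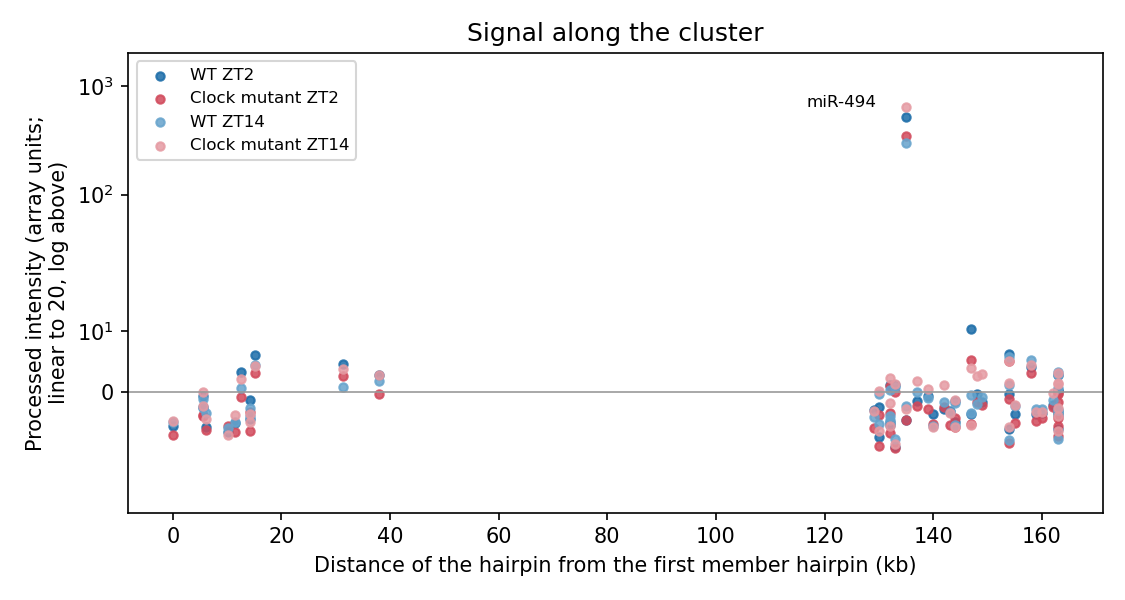
Processed intensity (array units, linear up to 20 and logarithmic above) of the 47 members, against the distance of the hairpin from the first one in kb, with 1 point per array. Signals stay near 0 along all 3 blocks, and the points of miR-494 stand apart from those of its neighbours.

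The undetected members differed among themselves in a way that repeated from array to array. Over the 45, Pearson's r between the signals of 2 arrays was 0.892 to 0.949 and Spearman's rho 0.897 to 0.938 over the 6 pairs of arrays. The other 371 undetected mouse miRNAs gave r of 0.824 to 0.927. These correlations are across miRNAs, which are not replicates, and the arrays share the same probes. Across the 43 undetected members with a sequence, r between signal and GC content of the mature miRNA was -0.128 to 0.00108 over the 4 arrays, and r with its length 0.326 to 0.341. The order of signals below the detection limit is not read here as an order of miRNA levels.

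**Figure D3:**
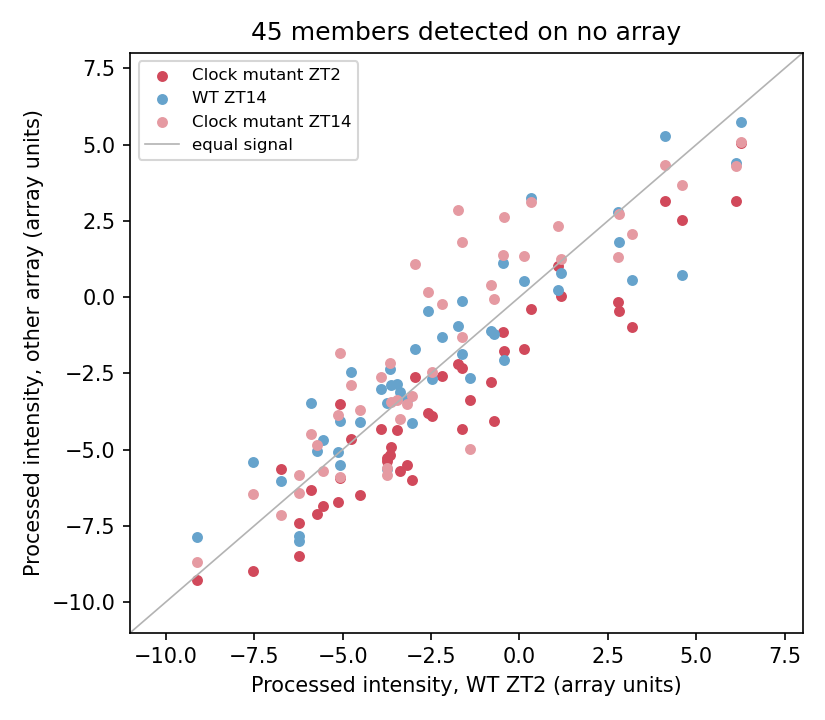
Processed intensity (array units) of the 45 undetected members on the WT array at ZT2 (horizontal) against each of the other 3 arrays (vertical), with the line of equal signal. The points run along the line, with r of 0.949, 0.92 and 0.892 for the mutant at ZT2, WT at ZT14 and the mutant at ZT14.

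Some members share part of their sequence. The arrays give no probe sequences, so whether 1 probe reads more than 1 of them was not tested. Runs of at least 10 identical bases were shared by 4 of the 946 pairs with sequences, given here with the shared run in capitals.
miR-300: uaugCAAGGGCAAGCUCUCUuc
miR-381: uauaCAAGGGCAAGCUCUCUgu
miR-412: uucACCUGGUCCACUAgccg
miR-758: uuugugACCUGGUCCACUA
miR-495: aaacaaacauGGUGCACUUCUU
miR-543: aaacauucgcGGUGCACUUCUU
miR-134: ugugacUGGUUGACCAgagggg
miR-380-5p: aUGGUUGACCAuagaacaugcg
All 8 miRNAs of these pairs were undetected on every array. The longest run that miR-494 shared with another member was 7 bases, with miR-299 and with miR-323-3p, both undetected on every array. Only members with sequences were compared, so whether the miR-494 probes read any other RNA was not tested.

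mmu-miR-494 was the exception. Its signal was 515 units at ZT2 and 301 at ZT14 in WT, against 346 and 642 in the mutant. That was 94 and 36.2 times the mean of the negative controls in WT, and 66.1 and 66 times in the mutant. All 20 of its spots were well above background on every array, and its signal-to-error ratio was 9.93 to 9.97. Before scaling, the miR-494 signal was highest on the mutant array at ZT14 and lowest on the WT array at ZT14.

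Both probes of miR-494 gave this signal. The 10 spots of the first averaged 694 units (SD 43.3) at ZT2 and 421 (SD 16.3) at ZT14 in WT, against 486 (SD 17.3) and 874 (SD 42.1) in the mutant. The second, at the same times, averaged 336 (SD 12.2, over 9 spots) and 182 (SD 7.45) in WT, against 207 (SD 4.37) and 409 (SD 27.6) in the mutant. The first was 2.06 to 2.35 times as bright as the second on each array. These SDs are between spots of 1 hybridization, and say nothing of the spread between mice.

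**Figure D4:**
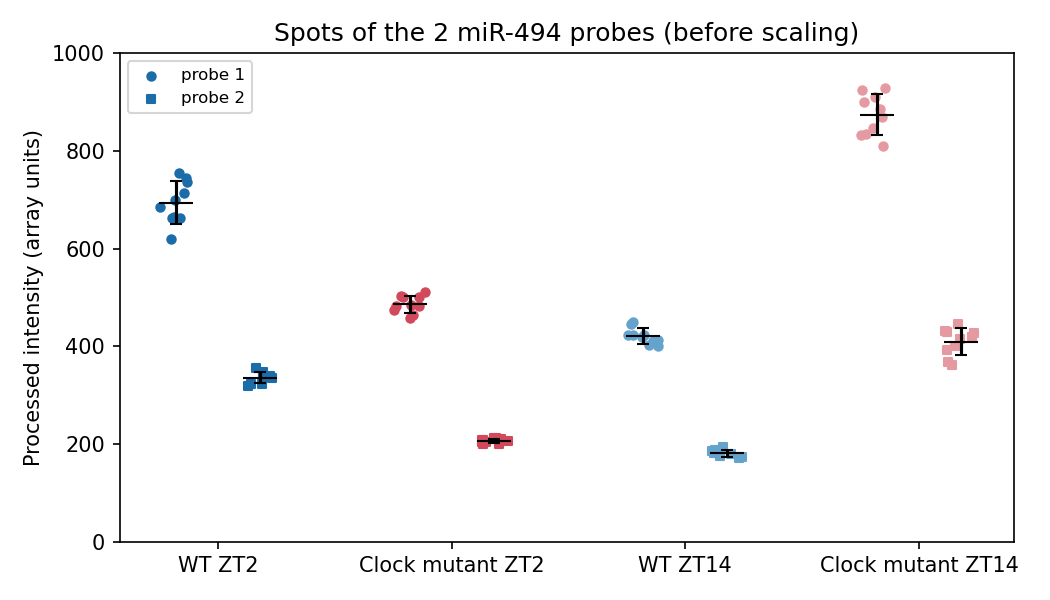
Processed intensity (array units, linear axis from 0, before scaling) of each spot of the 2 miR-494 probes on the 4 arrays, with the mean and SD over spots in black. On both probes the mutant array at ZT14 is the highest and the WT array at ZT14 the lowest.

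The hairpins on both sides of miR-494 gave no such signal. miR-679 lies 174 bases away and gave -4.77 to -2.45 units over the 4 arrays. miR-329, 1740 bases away on the other side, gave 0.0204 to 1.24 units, and miR-543, 1855 bases away, -2.34 to 1.82. miR-758 gave -9.29 to -7.88, miR-323-3p -5.06 to -1.82 and miR-495 -2.8 to 0.41 units, within 3351 bases of miR-494. The other arm of the miR-494 hairpin was not among the miRNAs measured.

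To compare arrays, each signal was divided by the 75th percentile of its array taken over those 123 mouse miRNAs that every array detected. Scaled in this way, miR-494 stood at 0.96 at ZT2 and at 0.887 at ZT14 in WT, against 0.688 and 1.2 in the mutant. Ratios are given on the log2 scale, with an SD from the spots only.

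At ZT2, the question of what the *Clock* mutation changes had 1 member measured on both arrays. miR-494 was 1.4-fold lower in the mutant, a log2 ratio of -0.48 (spot SD 0.08), with -0.42 on the first probe and -0.61 on the second. It was the 19th lowest of 160 mouse miRNAs measured on both arrays, with a median ratio of -0.065 (SD 0.36). Among the 123 miRNAs its rank ran from 4th to 17th lowest over 10 ways of processing. No member differed by 2-fold, the threshold of the study's methods, where 8.25% of the miRNAs detected on at least 1 of the arrays did, all 16 of them lower in the mutant. That count includes bounds for miRNAs detected on 1 array only. Of the 194 miRNAs, 160 were measured on both arrays, and the WT array detected 193 against 161. In the authors' log2 table the ratio of miR-494 was 0.33, because that table moved the median of the 123 miRNAs to 0.80. Over all alternatives the ratio ran from -0.70 to 0.33. Relative to the median it was -0.47, which a scaling by 1 number per array cannot move, and -0.58 to -0.42 over the 5 alternatives that change more than such a number.

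At ZT14, miR-494 was 1.35-fold higher in the mutant, a log2 ratio of 0.43 (spot SD 0.10), with 0.40 and 0.52 on its probes. It was the 6th highest of 123 measured miRNAs, with a median ratio of -0.031 (SD 0.64). That rank ran from 1st to 20th highest over 10 ways of processing. No member differed by 2-fold, where 13.4% of miRNAs detected on either array did, all 21 of them lower in the mutant. That count again includes bounds, with 123 of the 157 miRNAs measured on both arrays. The ratio of miR-494 passed 2-fold without scaling (1.09), in the authors' table (1.11) and with spike-in scaling (1.27), where the medians of the 123 miRNAs were 0.63, 0.64 and 0.81. Relative to the median it was 0.46, and 0.38 to 0.54 over the same 5 alternatives.

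Between the time points, miR-494 in WT had a log2 ratio of ZT14 to ZT2 of -0.11 (spot SD 0.09), beside a median of -0.121 over 137 miRNAs. Relative to the median of the 123 miRNAs it was 0.01, and -0.13 to 0.02 over the 5 alternatives. In the mutant miR-494 was 1.74-fold higher at ZT14 than at ZT2, a log2 ratio of 0.80 (spot SD 0.09), with 0.76 and 0.89 on its probes. That was the highest of 140 measured miRNAs, with a median ratio of -0.156 (SD 0.56). Among the 123 miRNAs its rank ran from 1st to 10th highest over 10 ways of processing. No member differed by 2-fold in the mutant. Of the 163 miRNAs detected on either array 13.5% did, all 22 of them lower at ZT14. That count includes bounds, with 140 of the 163 measured on both arrays. However, miR-494 passed 2-fold when arrays were scaled to the median (1.01) or to the 75th percentile over all mouse miRNAs (1.30). Relative to the median, the difference between time points in the mutant was 0.97, and 0.78 to 0.98 over the 5 alternatives. Some markers of other cell types shared the directions of miR-494 with genotype, lower in the mutant at ZT2 and higher at ZT14. These were the epithelial miR-200b (-0.92 and 0.67) and miR-200a (-0.73 and 0.52), the leukocyte miR-142-3p (-0.66 and 0.19) and the mesenchymal miR-143 (-0.59 and 0.19). The 2 epithelial ones were named after their values were seen, and only 2 of 5 miR-200 family members were detected on all 4 arrays. The leukocyte miR-223 (-0.43 and -0.03) did not share these directions. Nor did 3 mesenchymal and endothelial miRNAs, miR-199a-3p (0.06 and 0.32), miR-199a-5p (0.09 and 0.29) and miR-126-3p (0.13 and -0.03). Of the red cell and hepatocyte miRNAs detected on all 4 arrays, 0 of 2 and 0 of 3 shared these directions, against 20 of all 123 miRNAs so detected. The part of other cell types in the ratios of miR-494 was not tested.

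**Figure D5:**
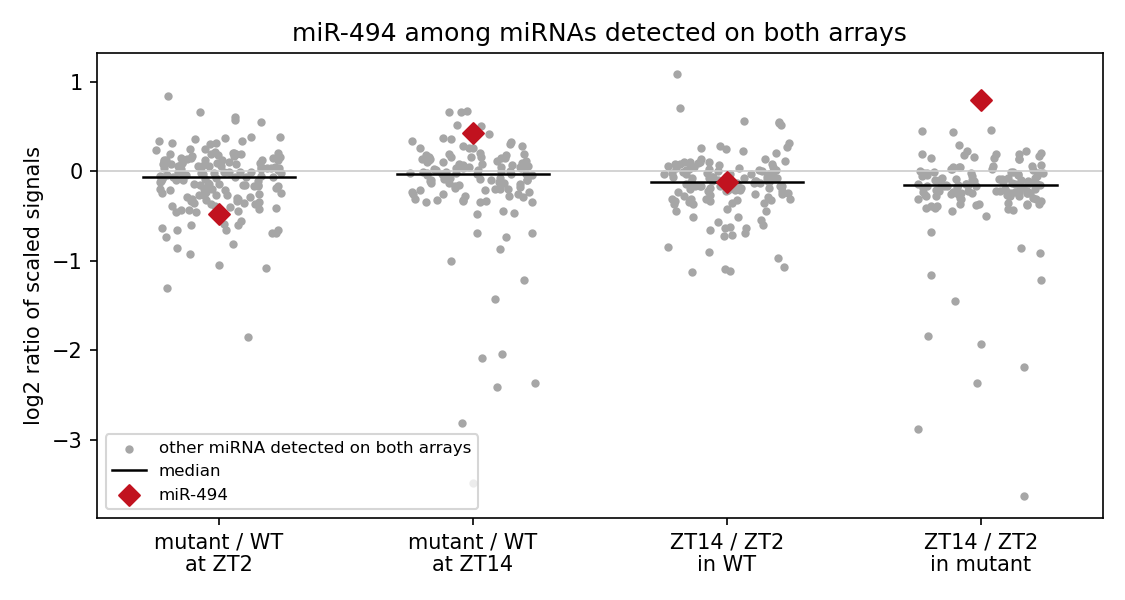
Log2 ratios of scaled signals of the miRNAs detected on both arrays of each comparison (grey points, with the median as a line) and of miR-494 (red diamonds). miR-494 is at -0.48 and 0.43 for mutant over WT at ZT2 and ZT14, and at -0.11 and 0.80 for ZT14 over ZT2 in WT and in the mutant.

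With genotype and time point fitted together over the 4 arrays in limma, miR-494 had a genotype effect of -0.02 (mutant minus WT, log2, SE 0.26, adjusted p = 0.968) and a time effect of 0.34 (ZT14 minus ZT2, SE 0.26, adjusted p = 0.577). Of the 123 miRNAs tested, limma called 0 for genotype and 0 for time point at an adjusted p under 0.05. At an unadjusted p under 0.05 there were 10 for genotype and 12 for time point. This design has 1 residual degree of freedom, and it assumes the same genotype difference at both times, which the ratios of miR-494 at ZT2 and ZT14 did not show. The sign of its genotype effect turned without scaling, to 0.26.

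mmu-miR-487b was the faint member. Its signal was 10.4 units at ZT2 and -0.576 at ZT14 in WT, against 5.29 and 3.93 in the mutant. Its detection on the WT array at ZT2 rested on 1 of its 2 probes, with a mean of 16 units and a signal-to-error ratio of 3.44. The same probe had ratios of 1.81, 0.265 and 1.44 on the mutant array at ZT2 and the WT and mutant arrays at ZT14, under the 3 that a call needs. None of its 20 spots was marked well above background on any array, and its signal at ZT2 in WT lay below the mean plus 2 SD of the negative controls, 12.9 units.

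On the mutant array at ZT2 miR-487b was not detected, and its 5.29 units lay near the mean of the negative controls, 5.24. With that undetected signal taken as a bound, its scaled value was 1.84-fold lower in the mutant than in WT. The log2 ratio of -0.88 moved between -2.78 with the scanner's summed signal and -0.05 with normexp background correction. The probe that gave the detection call averaged 16 units (SD 3.54) in WT and 9.57 (SD 3.97) in the mutant, and the other probe was not detected on either array. Set against the lowest signal of a miRNA detected on the WT array at ZT14, 3.02 units, miR-487b was at least 2.18-fold lower at ZT14 than at ZT2 in WT. That floor lay under the mean of the negative controls of the array, 8.32 units, and with that mean as the floor, or with normexp, no member passed 2-fold. With the lower floor it was the 1 member past 2-fold in that comparison, where 7.73% of miRNAs detected on either array were (6.70% lower and 1.03% higher at ZT14). Those shares include bounds, with 137 of the 194 miRNAs measured on both arrays. The bound for ZT14 against ZT2 in WT was -1.13 on the log2 scale, and it missed 2-fold with outlier spots kept (-0.73) and with 3 of the other ways of scaling (-0.96 to -0.83). Where at least 10 of the 20 spots had to be well above background, miR-487b was detected on no array.

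In all, 29 mouse miRNAs had a detection call on the WT ZT2 array and on no other. It also detected the most mouse miRNAs, 193 of 611. The mutant array at ZT2 detected 161, and the WT and mutant arrays at ZT14 detected 138 and 142. Of the 4 muscle miRNAs, miR-1, miR-133a and miR-133b were detected on that array and none on the other 3, with a summed signal of 167 units against -2.63 to 1.57; miR-206 was detected on none. Of 5 neural miRNAs, miR-137 was detected on that array and none on the others, and the defining neuronal miRNAs miR-9 and miR-124 on no array. Of 5 leukocyte miRNAs 3 were detected there and 2 on each other array. Of 3 red cell miRNAs 2 were detected there and 2 to 3 elsewhere, and of 6 mesenchymal and endothelial ones 5 there and 4 to 5 elsewhere. The part of such RNA in the signal of miR-487b was not tested. In pooled tissue, fewer cells of a type and less RNA per cell cannot be told apart.

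Further products of the same cluster outside the list gave the same picture as its members. Of 26 such miRNAs on the array, mostly opposite arms and later named miRNAs, 0 were detected on any array, with signals from -9.23 to 5.24 units. Over all mouse miRNAs, 195 of 611 (31.9%) were detected on at least 1 array. Of 25 miRNAs of the X-linked clusters known from testis, 0 were detected, with signals of -9.18 to 3.99 units. Of 22 miRNAs of the miR-290 and miR-302 clusters, known from embryonic stem cells, 3 were detected on some array and none on all 4. The signals of these 22 reached at most 16 units, with at most 2 spots of a miRNA well above background on an array.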

How the data were processed

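The authors pooled liver RNA of 3 mice per condition and hybridized 1 array per pool. They deposited each array's scanner output from Agilent Feature Extraction 10.7.1.1 (version from the submitters' processing notes): background-subtracted spot intensity values, outlier flags and detection calls. A second deposited table, used as an alternative, gives the miRNAs on the log2 scale with the authors' own scaling and a floor for undetected ones. No spot was saturated, and 3.18% to 3.37% of miRNA spots were outliers.

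Intensities were averaged as the report describes, with Python 3.11.15, numpy 2.4.6, pandas 2.3.3 and matplotlib 3.10.9. A member detected on 1 of 2 arrays was given a bound: its signal there against the higher of its own signal and the lowest detected signal on the other array. The shares of all miRNAs past 2-fold count such bounds, and are given with the main scaling only. limma 3.58.1 in R 4.3.3 fitted genotype and time point over the 123 miRNAs with Benjamini-Hochberg adjustment. It was tested on simulated data for these 123 miRNAs and recovered 30 of 30 changed by 1.5 on the log2 scale at an SD of 0.15, with 0 false calls; this does not give the power at the spread of the real arrays.

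The members and lists were chosen with earlier results of these data known. Values on every array are given for members detected on at least 1 array and the 5 undetected members with the highest mean spot signal; miR-127, miR-134, the miR-376 members and others named for their position or role were named after the values were seen. Array names were paired with current mature arms by hand, and sequences and coordinates are RefSeq's (GRCm38.p6), since the arrays name no build. Alternatives covered scaling, background correction, outlier spots, detection calls, thresholds and omitted arrays. Added once the data had been seen were each miR-494 probe alone and scaling by 4 spike-in control probes.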

Additional observations from a re-analysis of the deposited data

Results flagged for a closer look

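miR-494 moved in opposite directions with genotype at the 2 time points: the log2 ratio of mutant to WT was -0.48 at ZT2 and 0.43 at ZT14, except that in the authors' table, whose median at ZT2 was 0.80, it was 0.33 at ZT2. Both of its probes gave these directions. The difference between the ratios, ZT14 minus ZT2, was 0.91 (spot SD 0.13), the 4th highest of the 123 miRNAs detected on all 4 arrays, where the median was -0.06 and the SD 0.62. Of those miRNAs 20 were lower at ZT2 and higher at ZT14 in the mutant. Markers of other cell types were among them: the epithelial miR-200b (-0.92 at ZT2, 0.67 at ZT14) and miR-200a (-0.73, 0.52), named after their values were seen and both above miR-494 in that difference, the leukocyte miR-142-3p (-0.66, 0.19) and the mesenchymal miR-143 (-0.59, 0.19). They were 2 of 2 miR-200 family members, 1 of 2 leukocyte and 1 of 4 mesenchymal and endothelial miRNAs detected on all 4 arrays, against 0 of 2 red cell and 0 of 3 hepatocyte ones. The summed scaled signal of the 5 miR-200 family members was 0.238 and 0.0893 in WT (ZT2, then ZT14) and 0.119 and 0.155 in the mutant; that of the 5 leukocyte miRNAs was 1.22 and 0.629, and 0.787 and 0.686; that of the 6 mesenchymal and endothelial ones was 4.35 and 4.04, and 4.63 and 4.08. Their part in the ratios of miR-494 was not tested. With 1 array per condition, the difference was not tested.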

How the results depend on the processing

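No paired analysis was possible because there was only 1 array, and so no replicate pair, in a condition. The count of members detected on the WT array at ZT2 was 1 in place of 2 when 10 of 20 spots had to be well above background, and when the mean signal had to pass the mean plus 2 SD of the negative controls, with or without outlier spots; on the other arrays it was 1 under all 4 alternatives. The log2 ratio of miR-494, mutant to WT at ZT2, was -0.57 without scaling, -0.17 with the 75th percentile taken over all mouse miRNAs, -0.70 with the summed gene signal, -0.61 on the second probe alone and 0.33 in the authors' table. At ZT14 it was 1.09 without scaling, 0.94 with the percentile of all mouse miRNAs, 1.11 in the authors' table and 1.27 with spike-in scaling. For ZT14 to ZT2 in WT it was -0.77 without scaling, 0.18 with the percentile of all mouse miRNAs, 0.11 with the median, 0.00 with quantile normalization, -0.21 with the summed gene signal, -0.85 with spike-in scaling and -0.23 on the second probe. In the mutant it was 1.30, 1.01 and 0.99 with the percentile of all mouse miRNAs, the median and quantile normalization, 0.69 with normexp and 0.97 with spike-in scaling. The authors' table gave 6.78 and 7.56 between time points, where its median over the 123 miRNAs was 6.77 in WT and 6.60 in the mutant, so its values cannot be compared between time points. The cause of the other shifts was not tested, beyond the shift of the median that each scaling makes.

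The count of members past 2-fold was 0 or 1 throughout. At ZT2 it was 1 with the summed gene signal and at a threshold of 1.5-fold, and at ZT14 it was 1 without scaling, in the authors' table and with spike-in scaling. Between time points in WT it was 0 with the percentile of all mouse miRNAs, the median, quantile normalization, normexp, outlier spots kept, the negative control mean as floor and the stricter detection call. In the mutant it was 1 with the percentile of all mouse miRNAs, the median and at 1.5-fold. The authors' table also gave 1 between time points in each genotype, but its values cannot be compared between them. There the member in WT was miR-494 (6.78) in place of miR-487b.

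In limma the genotype effect of miR-494 turned to 0.26 without scaling, 0.39 with the percentile of all mouse miRNAs and 0.36 with spike-in scaling, and ranged from -0.42 to 0.38 with 1 array left out (0.03 without the WT array at ZT2). Its adjusted p was 0.386 to 0.987 over all these alternatives. Genotype calls were 16 with all 611 miRNAs at a floor of 1, and 0 to 7 with 1 array left out, 7 without the mutant array at ZT2. Time point calls were 5 without scaling, 3 with spike-in scaling, 35 with all 611 miRNAs, and 0 to 13 with 1 array left out, 13 without the WT array at ZT14 and 1 without the mutant array at ZT14. An array left alone in its group is assumed to vary like the others. Signal over background limits the rest: no ratio could be measured for 45 members.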
